A study of Mus musculus with 6 samples.

Results

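Compact circRNAs are the circles whose back-spliced ends lay under 1000 bases apart on the genome. They were chosen by position alone: every listed circRNA with 1 host gene and a genomic span, from the first to the last base, of less than 1000 bases was a member. Of the 11171 circRNAs listed, 10273 had 1 host gene, and 479 of these (4.66%) were compact. The other 9794 had a longer span and served for comparison. Spans of the members ran from 143 to 998 bases with a median of 619 bases and quartiles of 447.5 and 800.5 bases. A further 91 circRNAs under 1000 bases had no host or several hosts and were left out.

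RNA came from the cortex of male C57BL/6 mice aged 6 weeks, 3 in the Control group and 3 in the TLE (temporal lobe epilepsy) group, with 1 library per mouse; the methods of the study give the substrain as C57BL/6J. TLE mice received scopolamine methyl bromide, a peripheral blocker of muscarinic receptors, and then pilocarpine, a muscarinic agonist that starts seizures. Their cortex was taken 24 hours after Status Epilepticus, which was ended with diazepam, and Control mice received saline. This is an acute stage of a chemically induced model, and whole cortex mixes all its cell types. In such bulk tissue, fewer cells of a type and less RNA per cell cannot be told apart.

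A circRNA forms when the spliceosome joins the end of an exon to the start of the same exon or of one upstream of it. The product has no free ends and resists exonucleases, and neurons are rich in such molecules. Long introns beside the circularised exons, and pairing between those introns, are known to favour the reaction. Circles of 1 exon need that exon to be long enough to bend back on itself, while circles within a short stretch of genome can hold several exons only where the introns between them are short.

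Levels are given in SRPBM, the number of reads across the back-spliced junction scaled to the mapped reads of the library. Each circle is counted over 1 junction, and the value is not scaled by the length of the circle. How the recovery of a junction depends on that length was not tested. Within each library the values were whole multiples of 1 step, taken as 1 junction read, which lay between 8.55 and 10.3 SRPBM. The smallest value listed was 2 reads, and a floor of 3 reads corresponded to between 25.6 and 31.0 SRPBM. The 6 libraries held between 32504 and 56516 junction reads in all, of which between 1988 and 3222 belonged to the members. TLE 1 held the fewest junction reads and TLE 3 the most. The step, which falls as mapped reads rise, was smallest in Control 1 and largest in TLE 1. Intervals and floors cover counting error only, and a value of 0 is given as listed.

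The bases that meet at the junction tell one circle from another, and they are shown for 7 of the 8 members with the highest levels, all single-exon circles, and for 2 of the members called in the comparison of TLE with Control. Setbp1, the other one of the 8, is not shown. Each line gives 15 bases before the junction in lower case and 15 bases after it in capitals, 5′ to 3′ on the strand of the host. They were read from the GENCODE M21 transcripts of build mm10.
Zfp609 (chr9:65794622-65795495, minus strand): gtcaagtctgaaaagCAATGATGTTGTCCA
Nfix (chr8:84771784-84772315, minus strand): ttgtccacactccggGATGAGTTCCACCCG
Pcmtd1 (chr1:7120194-7120615, plus strand): tgggcttaattttagGTTTAATTTATTTTT
Kat6b (chr14:21516626-21517498, plus strand): catgagaaagaccagGTCTTGGTTTCCTAA
Cdyl (chr13:35815909-35816575, plus strand): ctgttaatggaaaagGTGGAAAGTATCGTT
Kcnj6 (chr16:94832299-94833219, minus strand): tggtggaagccacagCTAACGTCTTGGAAG
Pwwp2a (chr11:43704534-43705477, plus strand): ccacccgctcagcagGTTTGGGCCCCATGG
Nsd3 (chr8:25640577-25641325, plus strand): ccggagggacagaatGCTCGATGAGAGAAA
Ctc1 (chr11:69027254-69028064, plus strand): ttccagccagcccagCTCCGAGATGTTCAT

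The 10 members with the highest mean level carried 40.1% of the summed level of the compact circRNAs, and 18 members (3.76%) carried at least 50% of it. The members were present among the strongest circles of the tissue: 3 of the 20 circRNAs with the highest mean level among those with 1 host were compact, as were 9 of the highest 50 and 10 of the highest 100. Over all 1-host circRNAs the share of compact ones was 4.66%. At the other end, 288 of the 479 members (60.1%) had at most 10 junction reads over the 6 libraries together.

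The highest member was the circle of Zfp609, a zinc finger gene whose circRNA is known from work on muscle (mmu_circ_0010631, exon 2, 874 bases). It read 1418.6, 1134.3 and 1361.0 SRPBM in Control 1 to 3 against 1487.5, 1236.2 and 1696.0 SRPBM in TLE 1 to 3. The groups overlapped, and the means differed by less than the libraries of a group did (log2 fold change 0.17, SE 0.21, with 17.1 SRPBM added to each value; limma, adjusted p = 0.922). Next came exon 2 of Nfix, which encodes a transcription factor of the nuclear factor I family (mmu_circ_0010080, 532 bases). Its level was 1180.6 ± 30.7 SRPBM in Control and 1388.1 ± 500.4 SRPBM in TLE (SD, n = 3 each), and the wide TLE spread came from TLE 3 at 1946.9 SRPBM.

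Exon 2 was also the circularised exon of the next 6 members. Exon numbers are those of the 1 transcript chosen for each circle, and another transcript can number the same exon otherwise. A longer Cdyl circle with the same last base as the compact one (mmu_circ_0001915), for example, was placed on exons 4 and 5. Pcmtd1, a methyltransferase-domain gene (mmu_circ_0005418, 422 bases), was at 1102.7 ± 146.7 SRPBM in Control and 1032.0 ± 244.8 SRPBM in TLE (SD, n = 3 each). Kat6b, a histone acetyltransferase (mmu_circ_0002372, 873 bases), differed least, with 1034.6 ± 74.5 and 1028.3 ± 100.9 SRPBM. Kcnj6, the GIRK2 subunit of an inwardly rectifying potassium channel (mmu_circ_0003498, 921 bases), was at 766.2 ± 128.3 and 796.2 ± 101.2 SRPBM. Setbp1, the gene of a SET-binding protein (mmu_circ_0004264, 630 bases), was at 654.1 ± 109.0 and 803.5 ± 233.2 SRPBM, and Pwwp2a, which binds the histone variant H2A.Z (mmu_circ_0000772, 944 bases), at 711.8 ± 54.7 and 738.9 ± 48.6 SRPBM. In each of these circles the values of the groups overlapped.

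The remaining circle of this set came from Cdyl, a chromodomain protein that acts as a transcriptional corepressor (mmu_circ_0001916, 667 bases). Its circle read 734.9, 660.1 and 654.6 SRPBM in Control 1 to 3 against 1280.9, 1087.1 and 960.5 SRPBM in TLE 1 to 3. The groups did not overlap, and the TLE mean was 1.62 times the Control mean. The log2 fold change of 0.68 (SE 0.21; limma, unadjusted p = 0.00512, adjusted p = 0.838) lay below 1.5, the fold change threshold of the study. The unadjusted p was 0.126 when the spread was not allowed to vary with the level.

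**Figure D1:**
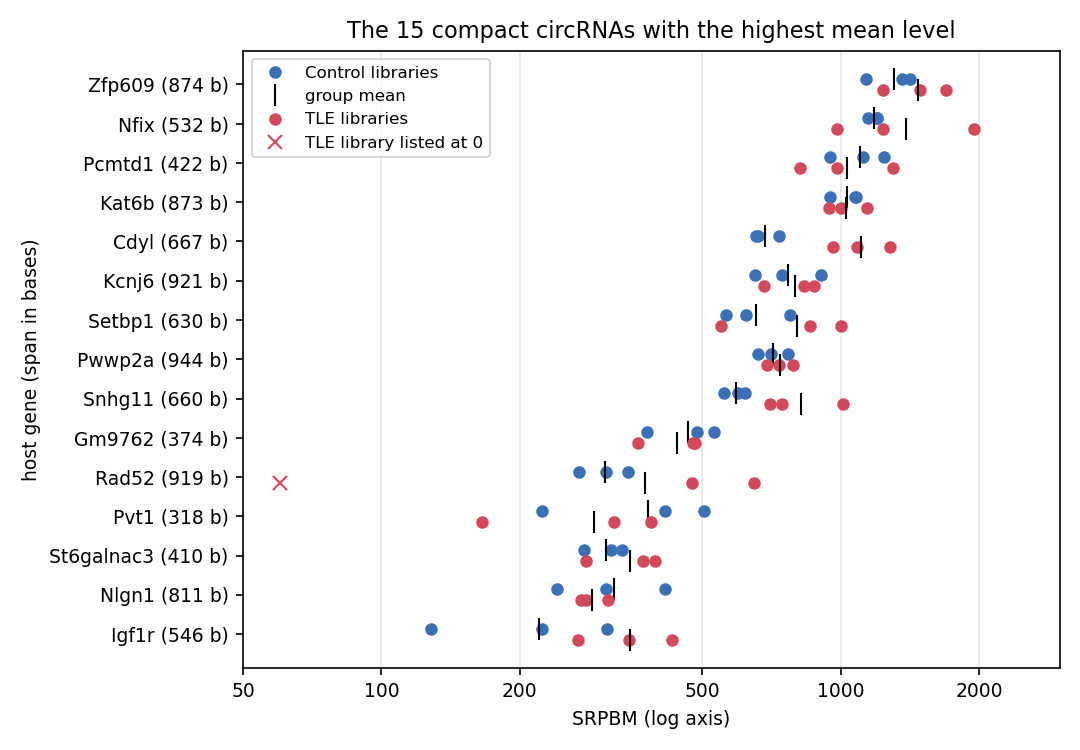
The 15 compact circRNAs with the highest mean level, 1 row per circle with its span in bases, and the SRPBM value on a log axis. Blue points are the 3 Control libraries and red points the 3 TLE libraries, vertical bars are group means, and the cross marks the Rad52 circle at 0 in TLE 2. The groups are apart for Cdyl and Snhg11 and overlap in the other rows.

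The other leading members included circles of non-coding hosts and further single-exon circles of protein-coding genes. Snhg11, a long non-coding RNA of neurons, had a circle of 660 bases inside its sequence with neither end on an annotated exon boundary (mmu_circ_0005847). Control 1 to 3 gave 598.2, 557.8 and 620.2 SRPBM and TLE 1 to 3 gave 702.4, 745.2 and 1012.4 SRPBM, without overlap (log2 fold change 0.44, SE 0.22; limma, adjusted p = 0.922). Pvt1, a long non-coding RNA next to Myc, had a circle of its exon 2 at 380.3 ± 143.4 SRPBM in Control and 290.4 ± 113.2 SRPBM in TLE (SD, n = 3 each; mmu_circ_0002893, 318 bases). St6galnac3, a sialyltransferase, and Nlgn1, the postsynaptic adhesion protein neuroligin 1, had circles of exon 3 with mean levels of 328.7 and 304.2 SRPBM. Exon 2 of Igf1r, the insulin-like growth factor 1 receptor, reached 220.5 ± 91.0 SRPBM in Control and 348.1 ± 80.5 SRPBM in TLE, with overlapping groups (mmu_circ_0009539, 546 bases).

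The Gm9762 circle, at 465.3 ± 77.8 SRPBM in Control and 439.9 ± 67.9 SRPBM in TLE (SD, n = 3 each), lay on a processed pseudogene (mmu_circ_0006879, 374 bases). A processed pseudogene is a reverse-transcribed copy of a spliced mRNA and has no introns. The 374 bases between the ends were identical (100%) to exons 2 to 6 of Ube2d2a, a ubiquitin-conjugating enzyme gene on chromosome 18, with both ends on exon boundaries there. The Zfa-ps circle (mmu_circ_0000268, mean 81.5 SRPBM) likewise matched exons 3 and 4 of Zfx over its 661 bases with 97.3% identity. Which copy these reads came from was not tested. Of the 453 member sequences that could be compared with the annotated transcripts, 25 matched another gene with at least 90% identity over at least 80% of their length, Eif3c, Rnf111 and Ldha among them. The 25 include matches of 100% identity, such as Matr3 with Gm28285, Lats2 with Gm49361 and Pakap with Palm2. Whether such annotated genes overlap the host on the genome was not tested, so the 25 need not all be separate copies.

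Rad52, a DNA repair gene, had the highest compact circle of several exons (mmu_circ_0008447, exons 10 and 11, 919 bases). It held 36, 29 and 40 junction reads in Control 1 to 3, 46 reads in TLE 1 and 75 in TLE 3, but was listed at 0 in TLE 2. In TLE 2 another Rad52 circle of 916 bases was listed with 2 reads (mmu_circ_0008448), which was at 0 in the other libraries. The log2 fold change of Rad52 was -0.86 with all libraries and 0.83 without TLE 2, so this library set its sign. The circle of Lrp6, a Wnt co-receptor (mmu_circ_0008481, exon 2, 394 bases), held 10, 10 and 11 reads in Control 1 to 3, 11 in TLE 1 and 23 in TLE 2, and was at 0 in TLE 3; it was singled out after its values were seen. Of the 36 members with at least 10 reads in 5 or more libraries, these 2 were at 0 in the remaining one, against 25 of 493 longer circRNAs. Conversely, a circle of 672 bases inside Malat1, an abundant nuclear RNA, had 28 reads in Control 2 and 0 elsewhere (mmu_circ_0004603).

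Both ends of 425 members (88.7%; 95% Wilson confidence interval 85.6 to 91.3%) lay on annotated exon boundaries of the host, against 91.0% of the longer circRNAs. A further 37 members had 1 end on a boundary, 12 had none, 4 lay on the strand opposite to the host, and the host of 1 was not in the annotation. Elavl3, a neuronal RNA-binding protein gene, held one of the 4 opposite-strand circles (mmu_circ_0010353), with 3 reads in Control 3 and 0 in the other libraries. Hosts were protein-coding for 465 members (97.1%) and long intergenic non-coding RNAs for 7.

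A transcript with both ends as exon boundaries was found for 423 members. Of these, 253 (59.8%) were single-exon circles, 121 held 2 exons, 41 held 3 and 8 held 4. Among the longer circRNAs placed in the same way, 1.29% were single-exon circles; a short span leaves little room for an intron, so the rule itself favours 1 exon. In the 170 members with several exons the introns between the ends summed to a median of 336 bases.

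Single-exon and multi-exon members differed in level and in the introns around them. Averaged over the 6 libraries, a single-exon member was at 68.1 SRPBM and a multi-exon member at 20.5 SRPBM, with medians of 15.4 and 7.27 SRPBM. The single-exon mean lay between 60.5 and 82.5 SRPBM and the multi-exon mean between 17.2 and 28.6 SRPBM, so that the ranges over the libraries did not meet. Without the 5 compact circRNAs of highest level, all of them single-exon, the ratio of the means fell from 3.35 to 2.29. This contrast was chosen after the values were seen and is given as a description. The 113 longer single-exon circRNAs, which span between 1005 and 5772 bases, had a mean of 96.2 SRPBM, above the single-exon members.

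The intron before a single-exon member had a median of 19261 bases and the intron after it 23109 bases. For multi-exon members the medians were 2852 and 2280 bases, and for longer circRNAs 10355 and 8679 bases. Longer single-exon circRNAs had medians of 20961 and 13016.5 bases. The Setbp1 circle, for example, lay between introns of 22007 and 162508 bases, whereas the Rad52 circle lay between introns of 1032 and 1443 bases. The exons themselves were long: single-exon members had a median of 546 nucleotides, while the other internal exons of their transcripts had a median length of 141 nucleotides. In 171 of the 245 single-exon members whose transcripts have other internal exons (69.8%), the circularised exon was the longest of them. Among longer single-exon circRNAs this share was 88.9%.

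**Figure D2:**
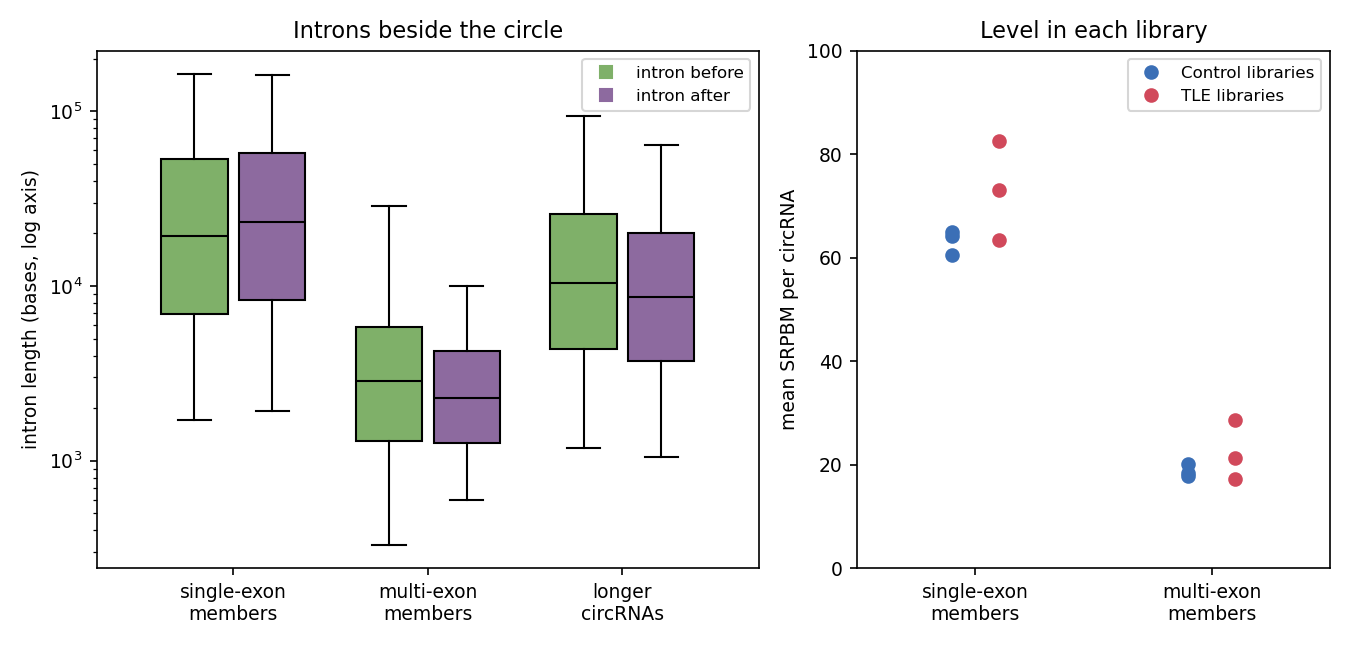
Left, length of the intron before and after the circle on a log axis for 253 single-exon members, 170 multi-exon members and the longer circRNAs; boxes are quartiles with the median, and whiskers reach from 5% to 95% of the circles. Right, mean SRPBM per circRNA in each of the 6 libraries, 3 Control in blue and 3 TLE in red; single-exon members lie between 60.5 and 82.5 SRPBM and multi-exon members between 17.2 and 28.6 SRPBM.

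In the transcripts chosen, exon 2 was the circularised exon in 116 of the 253 single-exon members (45.8%), against 47.8% of longer single-exon circRNAs. These 116 members had a mean of 103 SRPBM against 38.5 SRPBM for the 137 circles of later exons, while the medians, 16.3 and 15.2 SRPBM, lay close together. Zfp609, Nfix and Pcmtd1 were circles of exon 2, and without the 5 members of highest level the ratio of the means fell from 2.69 to 1.48. The annotated start codon lay inside 84 single-exon members (33.2%) and inside 8 multi-exon members (4.71%). Among longer single-exon circRNAs it lay inside 49.6%. Of the members on protein-coding transcripts, 312 of 417 (74.8%) consisted of coding sequence throughout and 7 held no coding base.

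Reading from the annotated start codon around the circle gives a frame that crosses the junction. In 76 of the 84 single-exon members with a start codon the first stop came after 1 crossing, and in the other 8 the frame met no stop. For Zfp609 the frame ran for 250 codons and ended at the TGA in the capitals of its junction line above. For Kat6b it ran for 212 codons and for Pcmtd1 for 137 codons. Frames without a stop were those of Kcnj6, Fbxw7, a ubiquitin ligase subunit, Grin2b (mmu_circ_0008488), an NMDA receptor subunit, Ralyl, Disp1, Tmcc2, Gatad2b and Gm527. These are properties of the annotated sequence, and translation was not measured.

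The exonic sequence of the members was richer in G and C than that of longer circRNAs, with medians of 50.8% and 47.3%, and the median of longer single-exon circRNAs was also 50.8%. The last bases before the junction were AG in 63.6% of members, 56.9% of longer circRNAs and 71.7% of longer single-exon circRNAs. The length was a multiple of 3 in 34.3% of members, 38.1% of longer circRNAs and 35.4% of longer single-exon circRNAs.

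The members came from 446 host genes, 12.9% of the 3469 hosts with a listed circle. Most hosts (417) had 1 compact circle, 25 had 2, and 4 had 3, namely Elavl3, Grin2b, Ep300 and Malat1. In 164 hosts the compact circles were the only ones listed. In the other 282 hosts the compact circles carried a median of 25.4% of the level of all circles of the host, with quartiles of 6.55 and 62.0%, and in 20 of them more than 90%. Zfp609 (97.4%), Nfix (97.1%), Pwwp2a (97.2%) and Kcnj6 (99.6%) were hosts in which 1 compact circle made up nearly the whole circular output, whereas in Nlgn1 the share was 49.5%.

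Of the 310 members whose hosts also gave longer circles, 198 (63.9%) shared 1 end with a longer circle of that host. In 94 of these 198 (47.5%) the compact circle was above the highest longer partner, and in 104 it was not. The exon 2 circle of Zfp609 averaged 1389 SRPBM, while the circle of exons 2 and 3, which starts at the same exon, averaged 22.2 SRPBM. For Kcnj6 the compact circle averaged 781.2 SRPBM and its longer partner 2.88 SRPBM. In Rims2, an active zone scaffold gene with 31 listed circles, the compact circles of exon 5 (mmu_circ_0002811, 18.5 SRPBM) and exon 6 (mmu_circ_0002812, 10.6 SRPBM) together held 1.20% of the level of the host.

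Among the hosts with 3 compact circles, Elavl3 had 2 that shared exon 2 as their first exon and differed by 3 bases in length, at mean levels of 271 SRPBM (549 bases, mmu_circ_0010359) and 65.9 SRPBM (546 bases, mmu_circ_0010358). Grin2b had separate single-exon circles of exon 4 (122 SRPBM), exon 3 (29.4 SRPBM) and exon 2 (8.92 SRPBM). Ep300, a histone acetyltransferase, had circles of exon 2 (48.9 SRPBM) and of pairs of exons starting at exon 18 (35.4 SRPBM) and exon 15 (20.8 SRPBM). The 3 Malat1 circles were each listed in 1 library.

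The members were also grouped by host families. Of 216 circles hosted by zinc finger families, 10 were compact (4.63%), with Zfp609, Zfp292 (127 SRPBM) and Zfp445 (56.5 SRPBM) the highest. Ion channel families gave 15 compact circles of 197 (7.61%), led by Kcnj6, Kcnn2 (166 SRPBM), a calcium-activated potassium channel, and Kcnh1 (37.3 SRPBM), a voltage-gated one. Receptors of glutamate and GABA gave 11 of 106 (10.4%), with Grin2a (209 SRPBM), Grm5 (154 SRPBM) and Grin2b the highest. The 7 hosts of these 11 circles were all glutamate receptor genes. Ubiquitin ligase and deubiquitinase families gave 14 of 282 (4.96%), with Rnf111 (70.9 SRPBM) and Fbxw7 (61.2 SRPBM) among the highest. Among 10 hosts of circles often named in the field, 3 had compact circles, Zfp609, Fbxw7 and Rims2, 4 of their 58 circles in all. Of these lists, 5 glutamate and GABA receptor, 8 ion channel, 5 zinc finger, 6 ubiquitin and 3 often-named compact circles could be compared between the groups, and 0 passed the threshold of 1.5 in either direction, against 1.26% higher and 0.304% lower of all 4271 circRNAs tested.

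Genes with a known response to seizures gave 0 compact circles: 4 of the 27 listed genes hosted a circle, 15 circles in all, each of longer span. The same held for genes of the blood-brain barrier (23 circles from 4 of 11 genes, 0 compact). Marker genes of neurons hosted 15 circles, of endothelium 4, of astrocytes 2, and of oligodendrocytes and microglia 0, with 0 compact in each list. The summed level of the neuron markers' circles lay between 162 and 325 SRPBM in Control and between 165 and 307 SRPBM in TLE, and that of the endothelium markers' circles between 83.7 and 214 and between 51.9 and 93.0 SRPBM. Few of these genes form circles, so their values say little on the cell types in the tissue.

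Averaged over all members, compact circRNAs were more abundant per listed circle than longer ones. This did not hold for the multi-exon members, whose mean of 20.5 SRPBM lay below the 30.5 SRPBM of longer circRNAs. Single-exon members averaged 68.1 SRPBM, members not placed on exons 33.4 SRPBM and longer single-exon circRNAs 96.2 SRPBM. Whether span has an effect apart from the number of exons was not tested. The mean level per compact circRNA was 43.8, 42.6 and 45.0 SRPBM in Control 1 to 3 and 42.9, 50.4 and 58.2 SRPBM in TLE 1 to 3. For longer circRNAs the means were 28.1, 26.4 and 28.9 SRPBM in Control and 26.5, 33.0 and 39.8 SRPBM in TLE. In log2 the compact mean exceeded the longer one by 0.64 ± 0.05 (SD, n = 6), in 6 of 6 libraries (two-sided exact sign-flip permutation test over libraries, p = 0.03125, the smallest that 6 libraries allow). The same circles are averaged in every library, so this p measures agreement between libraries. It does not measure the spread between circles. The excess lay in the strong circles: among detected circRNAs the median compact level exceeded the longer one by 0.11 in log2 (exact p = 0.5), and without the 5 highest circles of each kind the means differed by 0.29 (exact p = 0.03125). With a span limit of 500 bases the excess was 0.16 (exact p = 0.03125).

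As a set, the members were also listed in more libraries than longer circRNAs. Between 42.2% (TLE 1) and 56.4% (TLE 3) of the members were detected in a library, against 36.3 to 54.3% of the longer circRNAs. The difference was 4.87 ± 1.93 percentage points (SD, n = 6), positive in 6 of 6 libraries (two-sided exact sign-flip permutation test, p = 0.03125). This p, too, measures agreement between libraries only. Of the members, 91 (19.0%; 95% Wilson confidence interval 15.7 to 22.8%) were above 0 in all 6 libraries and 185 (38.6%) in 1. Of the longer circRNAs, 14.4% were above 0 in all 6 and 44.4% in 1. With a span limit of 500 bases in place of 1000 the difference in detection was 3.22 points (exact p = 0.0625).

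Within the members, the mean level was highest in the upper span classes. The 12 circles under 250 bases averaged 16.8 SRPBM, the 152 circles of 250 to 499 bases 36.0, the 168 of 500 to 749 bases 52.5 and the 147 of 750 to 999 bases 55.1 SRPBM. The medians did not follow the means, at 3.44, 10.4, 10.4 and 8.84 SRPBM in the same order. The share listed in 1 library was 83.3% under 250 bases and then 36.2, 35.7 and 40.8%. Above the limit the mean dropped to 34.9 SRPBM for the 488 circles of 1000 to 1999 bases and to 29.4 SRPBM for the 1225 of 2000 to 4999 bases. The share of single-exon circles also dropped there, from 42.2% at 750 to 999 bases to 16.6% at 1000 to 1999 bases. The shortest members, a circle of exon 2 of Hivep1 (143 bases) and a Malat1 circle of 150 bases, each had 2 reads in a single library. Just inside the limit lay circles of Rbbp5 (998 bases, 2.87 SRPBM on average) and Chd9, a chromatin remodeler (997 bases, 31.4 SRPBM). Just outside lay circles of Atxn2 and Hmgxb3, both with a span of 1000 bases, at 27.5 and 29.4 SRPBM.

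**Figure D3:**
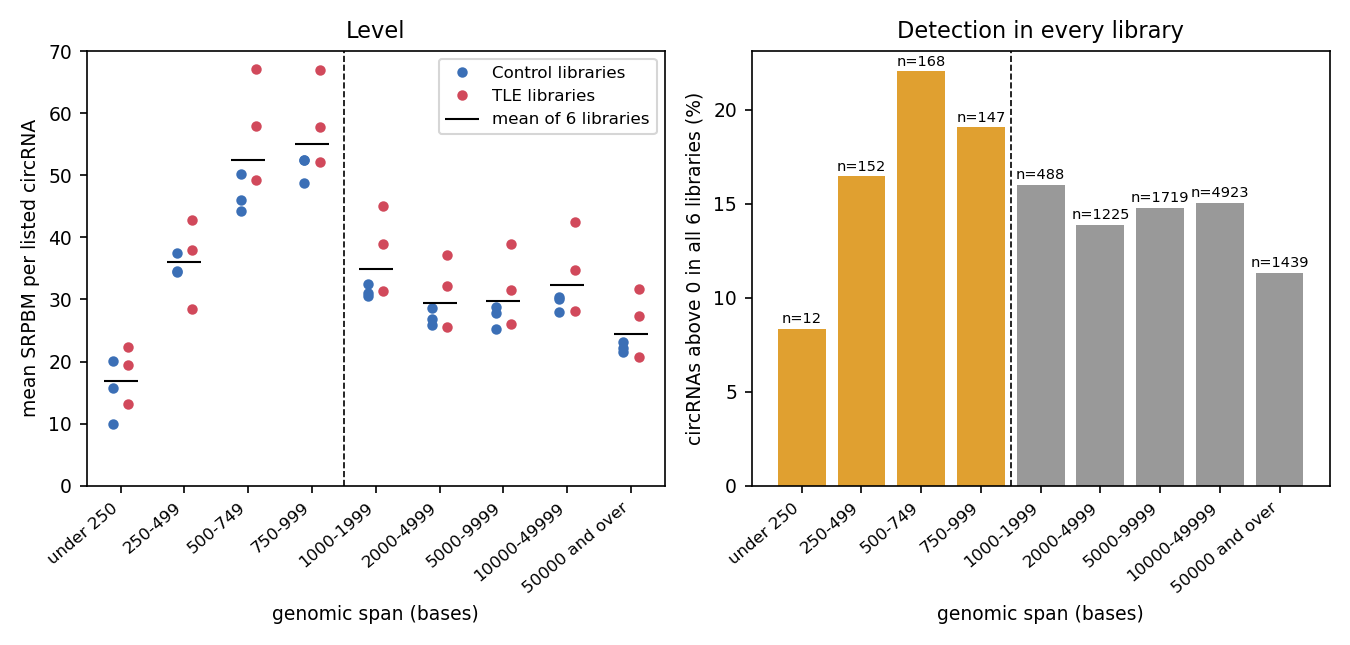
Left, mean SRPBM per listed circRNA by class of genomic span in bases, with points for the 3 Control (blue) and 3 TLE (red) libraries and a bar for their mean; right, share of circRNAs above 0 in all 6 libraries with the number of circles in each class, compact classes in orange. The dashed line is the limit of 1000 bases: the means are 52.5 and 55.1 SRPBM in the classes of 500 to 749 and 750 to 999 bases and 34.9 SRPBM in the class just above it.

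Taken as a group, the members did not differ between TLE and Control beyond the spread of the libraries. Their summed level was 20988, 20407 and 21569 SRPBM in Control 1 to 3 and 20535, 24145 and 27880 SRPBM in TLE 1 to 3. TLE 1 lay within the Control values, and TLE 2 and 3 above them (exact permutation test, two-sided, p = 0.3; with 3 against 3 no p below 0.1 can be reached). After each library had been scaled to an equal total, TLE minus Control came to -516 SRPBM in the mean (exact p = 0.4). The share of the 1-host signal carried by members was 7.15 ± 0.14% in Control and 6.99 ± 0.33% in TLE (SD, n = 3 each; exact permutation test, p = 0.5). It was lowest in TLE 3 at 6.68% and highest in TLE 1 at 7.33%.

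In Control 223, 221 and 219 members were detected, and in TLE 202, 248 and 270 (exact permutation test, p = 0.4). The order within TLE was that of the junction reads of the libraries, while by the step TLE 2 and TLE 3 had similar numbers of mapped reads (8.77 and 8.65 SRPBM per read). After the junction reads of each library were thinned to the 32504 of TLE 1, the numbers were between 194 and 210 in Control and between 202 and 207 in TLE.

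Of the 479 members, 216 were above 0 in at least 3 libraries and entered the comparison circle by circle, in which TLE was set against Control with limma on log2(SRPBM + 17.1). Fold changes on this scale understate the change of weak circles. With a threshold of 1.5 on the log2 fold change and an unadjusted p under 0.05, 2 members were higher in TLE and 1 was lower. The members' shares of 0.926% and 0.463% lay near the background of 1.26% and 0.304% over all circRNAs tested. An unadjusted p under 0.05 was reached by 11 members (5.09%), against 5.2% of all circRNAs tested. After adjustment over all circRNAs in limma, 0 members were under 0.05, the lowest adjusted p being 0.838.

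Nsd3, a histone H3 lysine 36 methyltransferase gene, had the largest change. The circle of its exon 2 (mmu_circ_0009837, 749 bases) was listed at 0 in Control 1 to 3 but read 41.3, 52.6 and 51.9 SRPBM in TLE 1 to 3, which is 4, 6 and 6 reads. Against a floor of 3 reads per Control library it was at least 1.84-fold higher in TLE (log2 fold change 1.94, SE 0.59; limma, unadjusted p = 0.0044, adjusted p = 0.838). Its host gave 9 circles, of whose level this one held 13.7%.

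Klhl8, a gene of the kelch-like family of ubiquitin ligase adaptors, gave the other one (mmu_circ_0007665, 381 bases, 1 end on an exon boundary). Listed at 0 in Control 1 to 3, it read 20.7, 52.6 and 51.9 SRPBM in TLE 1 to 3, which is 2, 6 and 6 reads and at least 1.58-fold above the floor (log2 fold change 1.73, SE 0.59; limma, unadjusted p = 0.0094, adjusted p = 0.838). Klhl8 also had a stronger compact circle of 384 bases (mmu_circ_0007666), which was not among the members called. Its mean was 58.3 SRPBM, against 20.9 SRPBM for the circle of 381 bases. Both shared an end with the same longer circle.

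The member that fell was a circle of exons 8 to 10 of Ctc1, a telomere maintenance gene (mmu_circ_0000944, 811 bases). Control 1 to 3 gave 59.8, 27.9 and 17.2 SRPBM, which is 7, 3 and 2 reads, and TLE was listed at 0, at least 1.26-fold lower against the floor (log2 fold change -1.52, SE 0.57; limma, unadjusted p = 0.0169, adjusted p = 0.838). Without Control 1 its log2 fold change was -1.20 and it was no longer past the threshold. Another compact circle of Ctc1 (mmu_circ_0000942), not among the members called, had a mean of 32.3 SRPBM against 17.5 SRPBM for the called one. The 3 circles called thus rest on 16, 14 and 12 reads in total. Each was at 0 throughout 1 group and passed the filter of 3 libraries only through the group where it was listed. The filter was therefore not independent of the contrast, and the p-values of these circles are given as a description.

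The remaining members with an unadjusted p under 0.05 stayed below the fold change threshold. Besides Cdyl they included the circles of Rsbn1l (log2 fold change 1.12), Nav3 (0.83), Pak7 (1.11), Ntng1 (1.39) and Insig2 (1.33), all with a higher mean in TLE, and of Hmbox1 (-1.29), each with an adjusted p of at least 0.838 in limma. Nav3, a microtubule-binding neuron navigator, read 85.5, 55.8 and 68.9 SRPBM in Control 1 to 3 against 124, 132 and 156 SRPBM in TLE 1 to 3.

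Groups did not overlap for 16 members that were higher in TLE (7.41%) and 3 that were lower (1.39%), against 8.94% and 2.11% of all circRNAs tested. The median log2 fold change of the members was 0.09, and 122 of the 216 were positive; over all circRNAs tested it was 0.17. With every library scaled to an equal total, the medians were -0.06 and 0.01, so changes are best read relative to this shift. At that scaling the same numbers of members, 2 higher and 1 lower, passed the threshold, while over all circRNAs tested the split moved from 54 higher and 13 lower to 37 and 25.

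**Figure D4:**
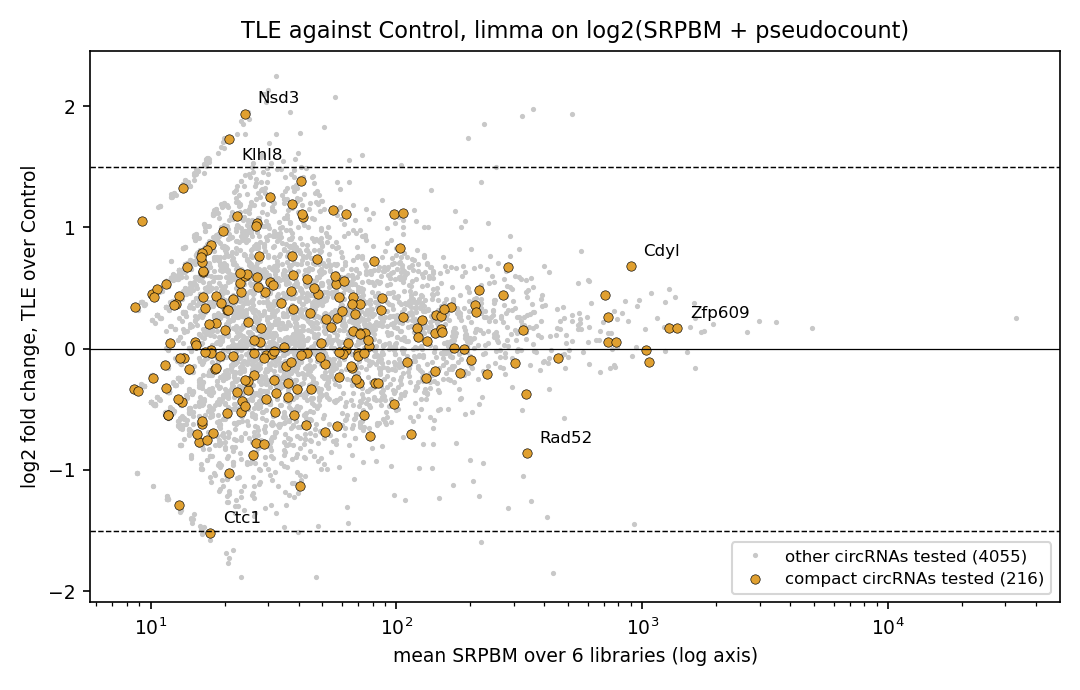
Log2 fold change of TLE over Control from limma against the mean SRPBM over the 6 libraries on a log axis, with 216 compact circRNAs in orange and the other circRNAs tested in grey. Dashed lines mark a log2 fold change of 1.5 in either direction; Nsd3 and Klhl8 lie above and Ctc1 below, all under 25 SRPBM, while Cdyl lies at 0.68 among the strong circles.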

How the data were processed

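Cortex RNA of 3 Control and 3 TLE mice was depleted of ribosomal RNA and sequenced. The authors identified circRNAs with CIRI and deposited their expression as SRPBM, a signal in which back-spliced junction reads are scaled by mapped reads. All 6 deposited files held the same table, and it was used once. Build mm10 and DESeq2 are named in the submitters' processing notes, without versions.

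Within 0.1 read, 100% of the values above 0 were whole multiples of 1 step per library, which was taken as 1 junction read; each library held 32504 to 56516 such reads. Because the smallest value was 2 reads, lower counts had been removed, and no count-based test was run. Members and lists were chosen with earlier results of these data known. Ends were placed on exons of the GENCODE M21 annotation (mm10), using the first transcript with both ends as boundaries, protein-coding and longest first. Near copies were sought with blastn 2.17.0.

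TLE was compared with Control by limma 3.58.1 (R 4.3.3, eBayes with trend) on log2(SRPBM + 17.1), the smallest value above 0, over the 4271 circRNAs above 0 in at least 3 libraries, with Benjamini-Hochberg adjustment. In a test on simulated data with 4241 circRNAs, 198 of 200 circRNAs changed 8-fold were recovered and 11 of the unchanged ones passed the threshold. The changed ones were drawn only from circRNAs with more junction reads than any member called. Simulated reads varied by sampling noise alone. Recovery of weak circles, and false calls at the spread of the real replicates, were therefore not tested. Totals and shares of the libraries were tested by exact permutation, two-sided. Each library is 1 mouse. Replicates of a group differed by more than sampling noise (chi-square per degree of freedom 1.75 to 2.49), so each was counted once. Named members were the 15 highest, those past the threshold, those of the hosts with the most compact circles, up to 3 per host list (often-named circle hosts, zinc finger, ion channel, glutamate and GABA receptor, ubiquitin, seizure response, barrier and 5 cell-type lists), and those at the ends of the span range; a few of them are not reported here. The alternatives were other pseudocounts, filters, scaling, span limits, a replicate block and leaving out each library.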

Additional observations from a re-analysis of the deposited data

How the results depend on the processing

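Compact circRNAs past the threshold numbered 2 higher and 1 lower in TLE, and both counts were the same without a filter on low values, with a filter at the median level, after rescaling, and without a trend in eBayes. They were 5 and 2 with a pseudocount of 8.55 in place of 17.1, 4 and 2 with a pseudocount of 1, 7 and 2 at a log2 fold change of 1, 1 and 0 under 500 bases, and 1 and 1 for circles with both ends on exon boundaries. Leaving out 1 library gave 2 to 6 higher and 0 to 3 lower; the 6 came without Control 2, 4 higher came without Control 3, the 0 without Control 1 and the 3 without TLE 2. The cause was not tested. In every fit run 0 members had an adjusted p under 0.05.

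Same-numbered libraries deviated together with correlations of 0.0103 to 0.0192, and libraries of different number with correlations of -0.0242 to 0.00922. Whether a shared number marks a pairing or a batch was not tested. With a replicate block the counts were 2 higher and 1 lower, and the share of signal differed by -0.164 percentage points, as without it.

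The share of signal differed by 0.0203 points with a limit of 2000 bases and by -0.336 to -0.0095 points on leaving out 1 library. The summed level differed by -516 SRPBM after rescaling and by 1352 to 5025 SRPBM on leaving out 1 library, lowest without TLE 3. The number detected differed by 4 to 38, lowest without TLE 3. The excess in mean level was 0.11 in log2 (exact p = 0.5) for the median of detected circRNAs. It was 0.63 to 0.65 without 1 library, and the excess in detection was 4.35 to 5.43 points, where 5 libraries cannot give a p below 0.0625. It was 3.22 points under 500 bases (exact p = 0.0625).

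In 39 of 455 refits the log2 fold change of a named circRNA took the opposite sign, in 20 circRNAs, of which 0 were called. After rescaling it was -0.17 for Pwwp2a, -0.16 for Kcnj6, -0.0610 for St6galnac3, -0.11 for Grin2b (mmu_circ_0008487), -0.0703 for Grm5, -0.0521 for Nfix, -0.0562 for Zfp609 and -0.0611 for Rnf111. Without 1 library it ranged from -0.0858 to 0.0485 for Kat6b, -0.13 to 0.91 for Rims2, -0.53 to 0.27 and -0.85 to 0.50 for Ep300 (mmu_circ_0002994 and mmu_circ_0003000), -0.0496 to 0.18 for Kcnj6, -0.13 to 0.87 for Kcnh1, -0.29 to 0.0421 for Pcmtd1, -0.30 to 0.0685 for Nlgn1, -0.21 to 0.0536 for Gm9762, -1.82 to 0.83 for Rad52, -0.32 to 0.42 and -0.98 to 0.12 for Grin2b (mmu_circ_0008487 and mmu_circ_0008488), -0.0447 to 0.31 for Grm5, -0.10 to 0.39 for Nfix, -0.0207 to 0.81 for Chd9, -0.18 to 1.22 for Zfp445 and -0.11 to 0.50 for Rnf111.

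The planned count-based tests, edgeR and DESeq2, were not run, because junctions with 1 read are missing from the values. At this depth 60.1% of members had 10 reads or fewer in all, and how the recovery of changes depends on the number of reads was not tested.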
